A study of Rattus norvegicus with 6 samples.

Results

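The genes described here are 9 genes of glutamine and amino acid transport and metabolism, out of the 18420 genes in the deposited table. They were taken by symbol from a fixed list: the transporter genes Slc1a5, Slc7a5, Slc7a11 and Slc38a2, the glutamine and glutamate enzyme genes Glul and Glud1, the asparagine synthetase gene Asns, and the aspartate aminotransferase genes Got1 and Got2. The list was drawn up with earlier results of these data known, and the read counts compared below are among the values it was read from, so the differences between the groups in these 9 genes are given as a description. Counts of calls among them stand beside the share of all genes and are not evidence. The libraries came from primary chondrocytes of wild-type male Sprague-Dawley rats, used at the third passage. In the TNF-α group (n = 3), the cells received TNF-α (10 ng/mL) over 6 h, and the label gives 6 h as the time. In the TNF-α+NFL group (n = 3), the same TNF-α dose and time came before 24 h with NFL, a freeze–thaw lysate of Nanofat cells from rat abdominal fat, and the label gives 30 h as the time. Both groups had therefore received TNF-α, and NFL and the later time cannot be told apart. The groups were set up from 1 passage by random allocation, and the study names the 3 libraries of a group independent biological replicates. The sources do not tie them to separate animals, so the errors measure the spread between these cultures. The NC group was not analysed here.

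Glutamine is the most abundant free amino acid of blood plasma, and growing cells use it as a source of nitrogen and of carbon. It enters through transporters such as ASCT2 (Slc1a5) and SNAT2 (Slc38a2), is turned into glutamate, and glutamate feeds the citric acid cycle through glutamate dehydrogenase or the aminotransferases. Glutamate is also traded outward for cystine, which cells need for glutathione, and glutamine supplies the amino group of the hexosamines from which chondrocytes build glycosaminoglycans. Many genes of this network are known targets of ATF4, a transcription factor that responds to shortage of amino acids.

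The data were RNA-seq read counts per gene, estimated by the authors, and each library held between 19344893 and 19725135 of them. All 9 genes passed the filter on low counts, which left 13250 genes. In the TNF-α+NFL group 54 genes were called higher and 27 lower, 0.611% of those tested, at an adjusted p under 0.05 (edgeR's quasi-likelihood test, Benjamini-Hochberg). TNF-α replicate 1 stood apart from the other libraries of its group, and without it 930 of 13409 genes (6.94%) were called. The defining markers of the labelled cell type were uneven. Averaged over the 6 libraries, Col2a1 was at 8.47 TPM, Acan at 5.33 TPM and Sox9 at 4.54 TPM, against 1265 TPM for Col1a1 and 1100 TPM for Prg4, the lubricin gene of the cartilage surface. Col11a1, a collagen gene of cartilage, was at 460.0 TPM. Of the 16 chondrocyte markers tested, 0 were called by edgeR, 2 had an unadjusted p under 0.05 and 1 was called by DESeq2, against 11.1% of all tested genes at that unadjusted p. The fold change was above 0 in 12 of the 16 and below 0 in 4, Prg4 among them at -0.14. Among all tested genes 48.2% were above 0. The 2 genes with an unadjusted p under 0.05 were Col2a1 and Col11a1, at log2 fold changes of 0.23 and 0.22. Their adjusted p in edgeR's test was 0.22 and 0.052, and all TNF-α+NFL libraries lay above the TNF-α libraries. Such a separation was seen in 3 of the 16 markers and the reverse in 0, against 8.66% and 8.17% of all tested genes. The part of these markers in the values below was not tested. TPM is the deposited level per transcript length, scaled to the same sum in every library. Of the 8 macrophage markers in the table, 2 passed the filter, and the summed CPM of the 8 was 77.9 to 82.9 in the TNF-α group and 69.9 to 71.7 in the TNF-α+NFL group, almost all of it Cd14 and Cd68. C1qb, a defining macrophage gene, was at 0 in each library. TNF-α replicate 1 held 40 counts of Csf1r, 14.95 of Lyz2, 7 of Ptprc and 6 of Itgam, further genes of white blood cells, against at most 7, 0, 2 and 2 in any other library, and these 4 were picked after their values were seen. Aif1 had 3 counts in both TNF-α replicates 1 and 2. Cd68 was highest of its group in replicate 1, at 25.7 CPM and 43.35 TPM, and Cd14 was lowest of its group there in CPM (53.5) but highest in TPM (68.63). The part of such cells in the values below was not tested. In bulk libraries, fewer cells of a kind and less RNA per cell cannot be told apart.

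The first question was how strongly each gene was expressed. The 9 genes spanned a wide range of TPM. Glud1, the mitochondrial glutamate dehydrogenase, was highest at 246.8 ± 5.51 TPM (SD, n = 6), and Slc38a2, a sodium-coupled carrier of small neutral amino acids, followed at 202 ± 5.99 TPM. Glul, glutamine synthetase, was at 198 ± 9.22 TPM, and its range over the libraries overlapped that of Slc38a2. Got2, the mitochondrial aspartate aminotransferase, was at 177 ± 5.43 TPM. Asns, which makes asparagine from aspartate with glutamine as nitrogen donor, was at 89.8 ± 1.75 TPM. Slc7a5, the leucine carrier LAT1, was at 46.7 ± 1.81 TPM, Slc1a5 at 41.7 ± 1.66 TPM and Got1, the cytosolic aspartate aminotransferase, at 34.5 ± 1.71 TPM. The last was Slc7a11, the cystine and glutamate exchanger xCT, at 1.87 ± 0.239 TPM, with a mean 18.45-fold below that of Got1. Only Slc38a2 and Glul had overlapping ranges among the 8 pairs of neighbours in this order. Glud1 was above 95.02% of the tested genes in mean TPM and Slc7a11 above 12.7%.

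**Figure D1:**
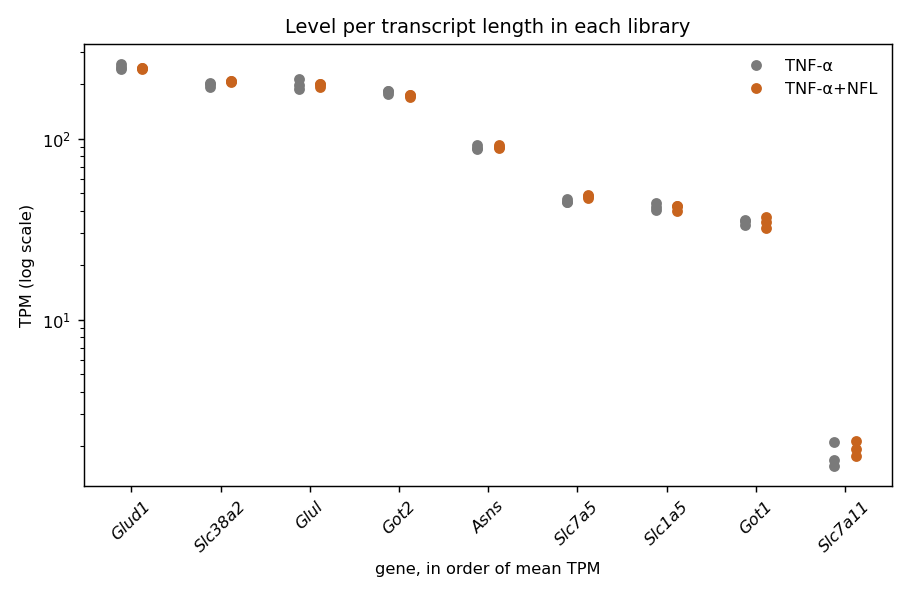
Level per transcript length (TPM, log scale) of each gene in each library, in order of the mean, with grey points for the 3 TNF-α libraries and orange points for the 3 TNF-α+NFL libraries. Glud1 lies highest, between 242.89 and 257.61 TPM, and Slc7a11 lowest, between 1.56 and 2.15 TPM.

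Windows upstream of the start sites are printed for the 3 genes that held a match to a searched motif, since the regulators of this network are known by such motifs. RefSeq windows of the GRCr8 build were found for 8 of the 9 genes, with 2 windows for Glul, and the 250 bases before each start were searched on both strands. The motifs were TGATGNAA, the amino acid response element bound by ATF4 with a C/EBP partner, TGACNNNGC, the antioxidant response element bound by NRF2, and CACGTG, the E-box. They do not share letters at the matches printed here. The windows are chr1:252329872-252330121 on the minus strand for Got1, chr19:66872413-66872662 on the minus strand for Slc7a5 and chr7:129742620-129742869 on the minus strand for Slc38a2, each 5′ to 3′ toward the gene, with motif matches in capitals.
Got1 upstream region: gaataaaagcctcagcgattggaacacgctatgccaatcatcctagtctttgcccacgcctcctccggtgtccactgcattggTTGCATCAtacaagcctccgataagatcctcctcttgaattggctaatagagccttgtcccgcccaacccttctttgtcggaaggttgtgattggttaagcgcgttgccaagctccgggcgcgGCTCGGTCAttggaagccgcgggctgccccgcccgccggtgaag
Slc7a5 upstream region: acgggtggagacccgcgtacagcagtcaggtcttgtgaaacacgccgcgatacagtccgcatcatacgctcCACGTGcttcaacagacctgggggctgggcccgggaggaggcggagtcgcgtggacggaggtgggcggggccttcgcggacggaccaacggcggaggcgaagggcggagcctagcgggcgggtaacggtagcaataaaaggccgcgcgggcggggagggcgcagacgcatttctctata
Slc38a2 upstream region: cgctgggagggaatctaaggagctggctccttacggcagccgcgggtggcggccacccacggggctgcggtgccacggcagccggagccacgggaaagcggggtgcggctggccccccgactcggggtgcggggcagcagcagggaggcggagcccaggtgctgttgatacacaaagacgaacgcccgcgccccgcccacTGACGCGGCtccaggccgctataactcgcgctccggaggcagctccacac
In Got1, the capitals mark an amino acid response element 167 to 160 bases before the start and an antioxidant response element 44 to 36 bases before it, both read on the opposite strand. Slc7a5 held an E-box and Slc38a2 an antioxidant response element. Among all 33469 windows of the same length, 3.4% held the amino acid response element, 10.1% the antioxidant response element and 5.59% the E-box, and of the 9 windows of these genes 1, 2 and 1 did. These matches are letters in a window, and binding was not measured.

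For the groups, counts were scaled to CPM, counts in a library of common size set by the TMM method, and 0 of the 9 genes had an adjusted p under 0.05 by edgeR, against 0.611% of all tested genes. At an unadjusted p under 0.05 there was 1 of 9, against 11.1% of all tested genes, and the adjusted count was also 0 of 9 with DESeq2 and with limma on log2(FPKM + 1). The fold change was above 0 in 3 of the 9 genes and below 0 in 6, against 48.2% above 0 among all tested genes. The replicates of the groups did not overlap in 3 of the 9 genes, against 16.8% of all tested genes. The TNF-α+NFL libraries were all higher in 1 of them, against 8.66% of all tested genes, and all lower in 2, against 8.17%. Since the genes were listed with these results known, nothing is read from these counts or shares.

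Of the 4 transporters, 3 differed by little between the group means, and Slc7a11 had the widest difference and the widest error. Slc1a5, the main carrier of glutamine into many dividing cells, was at 56.4, 53.0 and 55.4 CPM in TNF-α replicates 1, 2 and 3 and at 50.7, 53.7 and 54.1 CPM in the TNF-α+NFL replicates. The lowest library was TNF-α+NFL replicate 1, and the groups overlapped (log2 fold change -0.056, standard error 0.048). Slc7a5 was at 80.7, 80.6 and 80.9 CPM in the TNF-α replicates and at 82.4, 84.04 and 85.6 CPM in the TNF-α+NFL replicates. The groups did not overlap for Slc7a5, but the distance was small (log2 fold change 0.058, standard error 0.041). The spread of its TNF-α replicates, 0.172% of their mean, was the narrowest of the 9 genes. At their 1542 to 1600 counts, counting alone gives a wider spread, so neither the closeness nor the separation is read as a trait of Slc7a5. Slc38a2 was at 473, 482 and 465 CPM in the TNF-α replicates and at 483, 480.0 and 484 CPM in the TNF-α+NFL replicates. The TNF-α+NFL libraries of Slc38a2 lay close together, and TNF-α replicate 2 lay among them (log2 fold change 0.027, standard error 0.035). On the TPM scale the groups of Slc38a2 did not overlap, with 206.21 to 206.86 TPM in the TNF-α+NFL libraries and at most 202.96 TPM in the TNF-α libraries. Slc7a11 was at 6.96, 6.38 and 6.17 CPM in the TNF-α replicates and at 6.95, 7.94 and 7.74 CPM in the TNF-α+NFL replicates. The highest TNF-α library, replicate 1, was just above the lowest TNF-α+NFL library, also replicate 1. The log2 fold change of Slc7a11, 0.21 (standard error 0.10), was the widest in size and in error of the 9 genes.

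The mean CPM of the enzymes Glul, Glud1 and Asns was slightly lower in the TNF-α+NFL group, although Asns turned to slightly higher on the TPM scale, and the groups were separate for Glud1 alone. Glul was at 264, 252 and 240.4 CPM in the TNF-α replicates and at 247, 236.5 and 249.9 CPM in the TNF-α+NFL replicates. Its TNF-α libraries spread over a wider range than the distance between the groups (log2 fold change -0.045, standard error 0.044). Glud1 was at 386, 376 and 386 CPM in the TNF-α replicates and at 368.5, 363 and 369 CPM in the TNF-α+NFL replicates. All 3 TNF-α+NFL libraries of Glud1 lay below the 3 TNF-α libraries (log2 fold change -0.061, standard error 0.036). On the TPM scale, however, its groups overlapped. Asns was at 93.6, 95.8 and 102 CPM in the TNF-α replicates and at 97.8, 95.5 and 94.6 CPM in the TNF-α+NFL replicates. For Asns the TNF-α+NFL libraries all lay inside the range of the TNF-α libraries (log2 fold change -0.016, standard error 0.044).

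The aspartate aminotransferases pass the amino group of glutamate to oxaloacetate, Got1 in the cytosol and Got2 in mitochondria, and together they serve the malate–aspartate shuttle. Got2 was at 217, 222.5 and 218 CPM in the TNF-α replicates and at 206.5, 199.7 and 207 CPM in the TNF-α+NFL replicates. Its TNF-α+NFL libraries all lay below its TNF-α libraries, on the CPM and on the TPM scale (log2 fold change -0.10, standard error 0.037). Got1 was at 34.9, 34.3 and 37.0 CPM in the TNF-α replicates and at 36.8, 31.7 and 34.6 CPM in the TNF-α+NFL replicates. Got1 had both its lowest library and its second highest library in the TNF-α+NFL group, and the groups overlapped (log2 fold change -0.043, standard error 0.062). In TPM, Got2 stood at 5.24 ± 0.252 times Got1 in the TNF-α libraries and at 5.04 ± 0.293 times in the TNF-α+NFL libraries (mean ± SD, n = 3 each), with overlapping replicates.

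**Figure D2:**
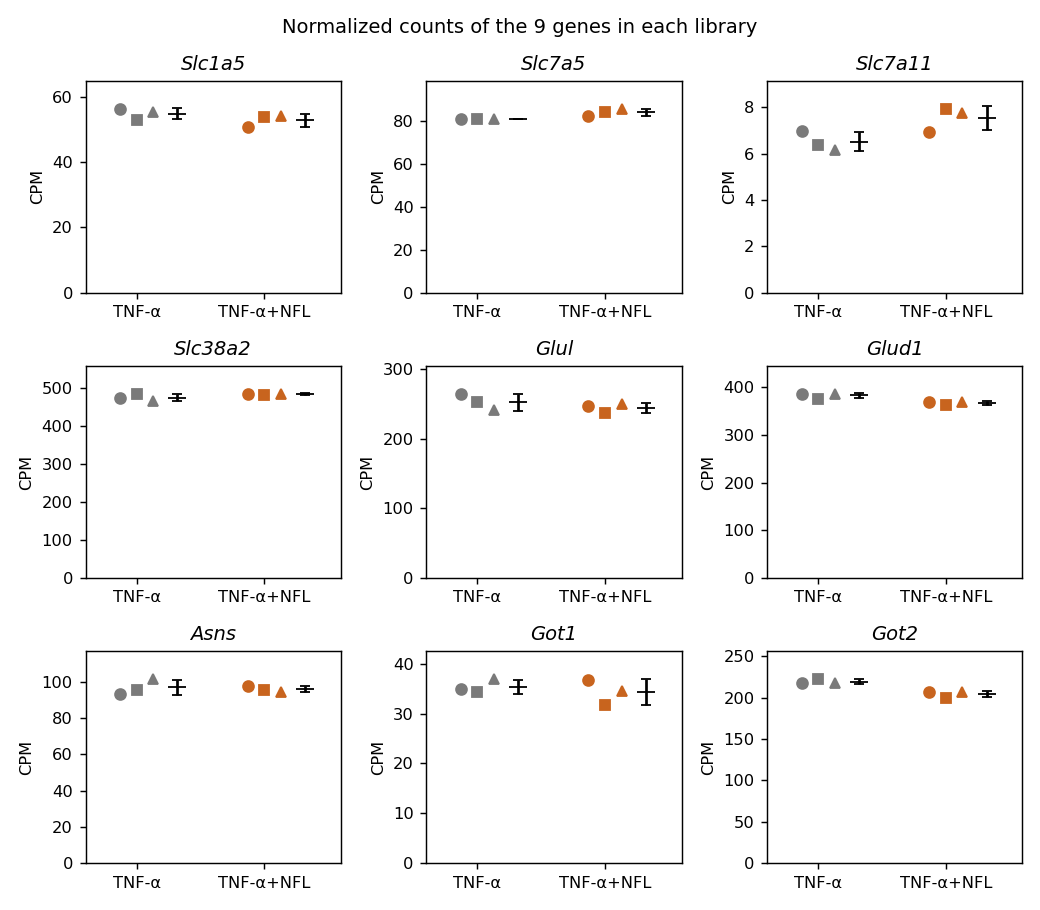
Normalized count (CPM, axis from 0) of each of the 9 genes in each library, with circles, squares and triangles for replicates 1, 2 and 3, and the black bar for the mean ± SD of the 3 replicates of a group. Slc7a5, Glud1 and Got2 have groups that do not overlap, and the other 6 genes have groups that do.

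The direction of these small changes depended on single libraries in 2 genes. Asns moved to 0.021 without TNF-α replicate 3, and Got1 to 0.012 without TNF-α+NFL replicate 2. For Glul the log2 fold change was -0.077 when TNF-α replicate 3 was left out and -0.010 when TNF-α replicate 1 was, and that of Slc7a11 from 0.18 without TNF-α+NFL replicate 2 to 0.27 without TNF-α+NFL replicate 1. That of Slc1a5 was -0.078 when TNF-α replicate 2 was dropped and -0.025 when TNF-α+NFL replicate 1 was. For Slc38a2 it was 0.016 when TNF-α replicate 3 was dropped and 0.043 when TNF-α replicate 2 was. Got2 moved least relative to its size, from -0.11 to -0.086. On the TPM scale, the median log2 ratio over the tested genes was 0.026, against -0.0035 for the fold changes from counts. On that scale 4 of the 9 genes were above 0, Asns among them at 0.013, against 60.51% of the tested genes.

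**Figure D3:**
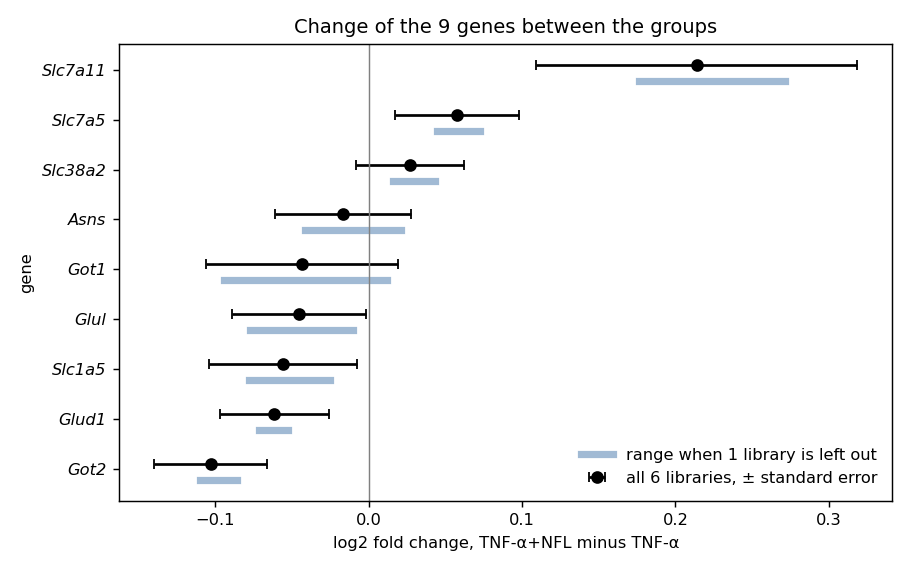
Log2 fold change of each gene between the groups (TNF-α+NFL minus TNF-α), with black points and bars for the value and its standard error from all 6 libraries and blue bars for the range over the 6 fits that left out 1 library. The values run from -0.10 for Got2 to 0.21 for Slc7a11, and the blue bars of Asns and Got1 cross 0.

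The sizes of the differences and the spread between replicates are given beside those of other genes as a description, since the list was drawn up with these values known. The median absolute log2 fold change was 0.056 over the 9 genes, 0.068 over all 13250 tested genes and 0.055 over the 9586 tested genes whose mean CPM lay between the lowest and the highest of the 9. The 75th percentile was lower in the 9 genes, at 0.061 against 0.13 and 0.099. The median coefficient of variation between replicates was 3.21% in the TNF-α group and 1.94% in the TNF-α+NFL group, against 6.31% and 4.65% for all tested genes, and 5.15% and 3.65% for the genes between the lowest and the highest of the 9. TNF-α replicate 1 differed from the mean of the other TNF-α replicates by a median of 0.030 on the log2 scale in these genes and by 0.10 in all tested genes. The largest departure of that library was in Slc7a11, at 0.15. The set between the lowest and the highest of the 9 reached down to Slc7a11, above 12.7% of the tested genes in mean TPM. The rest of the 9 were above at least 67.93% of them, so the set is not matched in level. The part of expression level in these sizes and spreads was not tested.

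Ratios of TPM within a library set partner genes side by side. Slc3a2 encodes 4F2hc, the heavy chain that LAT1 and xCT share and need to reach the cell surface. Its TPM was 5.01 ± 0.125 times that of Slc7a5 in the TNF-α group and 4.99 ± 0.0512 times in the TNF-α+NFL group (mean ± SD, n = 3 each), with overlapping replicates. Slc7a5 was 25.7 ± 3.46 times Slc7a11 in the TNF-α group and 24.9 ± 2.10 times in the TNF-α+NFL group. The ratio of Slc1a5 to Slc7a5, which encode an importer of glutamine and an exchanger that uses it to bring in leucine, was 0.955, 0.898 and 0.935 in the TNF-α replicates and 0.839, 0.873 and 0.863 in the TNF-α+NFL replicates. This ratio did not overlap between the groups, although Slc1a5 itself did. It was the only one of 7 ratios formed without overlap, was formed after the values were seen and was not tested. Among the others, Slc38a2 stood at 9.62 ± 0.672 times Slc38a1 in the TNF-α libraries and at 8.52 ± 0.498 times in the TNF-α+NFL libraries, and Slc1a5 at 0.552 ± 0.0344 and 0.530 ± 0.0130 times Slc1a4, another carrier of neutral amino acids. Glul and Glud1, which both use glutamate, stood at a ratio of 0.799 ± 0.0397 and 0.808 ± 0.0161 in the same order of groups, with overlap.

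The value for Slc7a11 depended on the deposited unit. The transcript length implied by its estimated count, its FPKM and the library total was 6538, 7363 and 7554 bases in the TNF-α replicates and 7851, 7393 and 8032 bases in the TNF-α+NFL replicates, a 1.23-fold range. TNF-α replicate 1 had the shortest. For the other 8 genes the longest implied length was between 1.001 and 1.022 times the shortest, with Asns at the upper end. Slc7a11 and Asns had fractional counts in all 6 libraries, as an estimate that divides reads among transcripts or genes gives. Each library held between 122.19 and 154.66 counts of Slc7a11, so its counting error was the largest of the 9 genes. On FPKM, its group means were 0.913 and 0.973, with a log2 ratio of 0.092 in place of 0.21. By limma on log2(FPKM + 1) its log2 fold change was 0.045, and a pseudocount of 1 is as large as its FPKM.

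**Figure D4:**
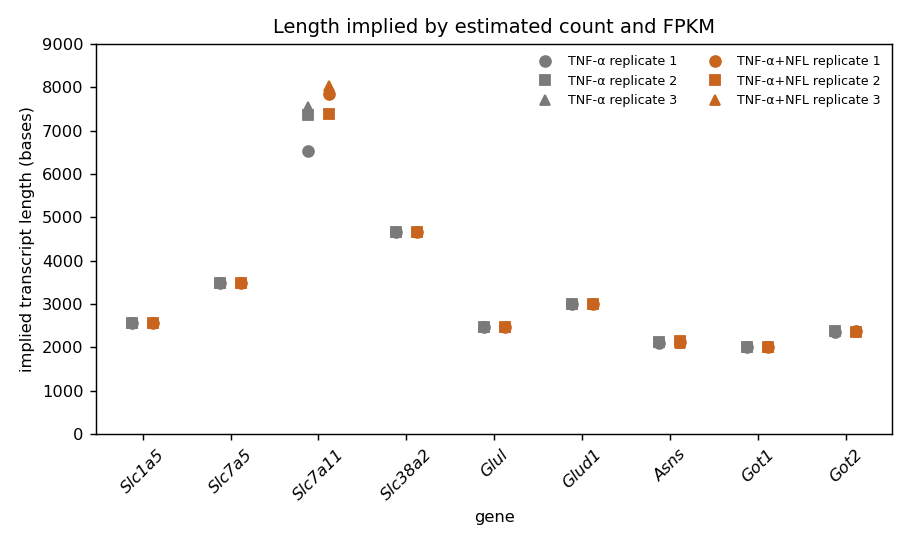
Transcript length in bases implied by the estimated count, the FPKM and the library total, for each gene and library, with symbols for the replicates and colours for the groups. The 6 values of Slc7a11 run from 6538 to 8032, while those of each other gene nearly coincide.

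The other genes of amino acid metabolism were compared through 9 lists with 190 genes in the table, the 9 genes left out. Of the 180 tested, 1 was higher and 1 was lower in the TNF-α+NFL group at an adjusted p under 0.05 by edgeR, against 0.408% higher and 0.204% lower among all tested genes. The median of their log2 fold changes was -0.023, and that of all tested genes -0.0035. At an unadjusted p under 0.05 there were 17 of 180, or 9.44%, against 11.1% of all tested genes. The TNF-α+NFL libraries all lay above the TNF-α libraries in 10 and all below in 22, against 8.66% and 8.17% of all tested genes. The higher gene was Slc6a6, the taurine transporter. Slc6a6 was at 355, 329 and 339 CPM in the TNF-α replicates and at 464, 512.5 and 422 CPM in the TNF-α+NFL replicates, with no overlap. The difference of 0.45 ± 0.065 (log2, SE) had an adjusted p of 0.020 in edgeR's test. Slc6a6 was past 0.05 in 2 of the 6 fits that left out 1 library, those without TNF-α+NFL replicate 2 or 3, and in 8 of 14 alternatives, with adjusted p up to 0.13. The lower gene was Nqo1, a quinone reductase and a classic NRF2 target, at 157.5, 167 and 168 CPM in the TNF-α replicates and at 138, 129 and 143 CPM in the TNF-α+NFL replicates. Nqo1 differed by -0.26 ± 0.046 (log2, SE), with an adjusted p of 0.022 in edgeR's test, and it was past 0.05 in 6 of 14 alternatives and, among the fits that left out 1 library, only without TNF-α replicate 1, with adjusted p up to 0.18.

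Among the other amino acid transporters 1 was called, and the direction of the rest was not tested. Of 23 tested transporters besides the 4 listed, 18 were above 0 and 5 below, with a median log2 fold change of 0.046. Of all tested genes, 48.2% were above 0. All 3 TNF-α+NFL libraries lay above the TNF-α libraries in 6 of them, a separation seen in 8.66% of all tested genes, and below them in 1. At an unadjusted p under 0.05 there were 4 of the 23, against 11.1% of all tested genes. Past the adjusted threshold there was 1, against 0.611%. The lowest value was that of Slc38a3, which was at under 1 CPM in each library (-0.60 ± 0.36, log2 and SE, with an adjusted p of 0.58 in edgeR's test). Among 20 tested glutamine and glutamate enzymes, 5 were above 0 and 15 below, with a median of -0.046. By edgeR and by DESeq2 0 of them were called, and 1 had an unadjusted p under 0.05 by each. The TNF-α+NFL libraries were all below in 2 of the 20 and all above in 0. The highest was Gpt, an alanine aminotransferase of low level here, at 0.16 ± 0.17 (log2, SE). The lowest was Gfpt2, which makes glucosamine phosphate from glutamine, at 31.9, 30.0 and 29.1 CPM in the TNF-α replicates and 24.9, 26.9 and 26.2 CPM in the TNF-α+NFL replicates (-0.22 on the log2 scale, with an adjusted p of 0.14 in edgeR's test). The cystine and glutathione list had 5 of 17 above 0 and a median of -0.064, with Nqo1 lowest and Gclc, which starts glutathione synthesis, highest at 0.063. Of these 17 genes, 3 had an unadjusted p under 0.05, and the TNF-α+NFL libraries were all below in 3 and all above in 0, against 8.17% and 8.66% of all tested genes.

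The remaining lists held no call by edgeR or DESeq2. In the integrated stress response list of 22 tested genes, 6 were above 0, the median was -0.042 and 4 genes had an unadjusted p under 0.05, against 11.1% of all tested genes. Atf3 was highest at 0.25 and Ddit4 lowest at -0.19. The TNF-α+NFL libraries were all above in 2 of the 22 genes and all below in 4, against 8.66% and 8.17% of all tested genes. Atf4 itself differed by -0.061 ± 0.049 (log2, SE), with an adjusted p of 0.71 in edgeR's test. Among the 16 genes of serine, glycine and one-carbon metabolism, 7 were above 0 and 1 had an unadjusted p under 0.05, with Shmt1 highest at 0.094 and Aldh1l1 lowest at -0.28. Among the 20 aminoacyl-tRNA synthetases, 5 were above 0 and 0 had an unadjusted p under 0.05, with Eprs highest at 0.033 and Farsa lowest at -0.10. The malate–aspartate shuttle and citric acid cycle list, to which the products of Got1 and Got2 belong, had 9 of 26 above 0 and 2 with an unadjusted p under 0.05, with Slc25a13 highest at 0.079 and Me3 lowest at -0.20. Of 13 genes of branched-chain amino acid breakdown, 5 were above 0 and 0 had an unadjusted p under 0.05, with Ppm1k highest at 0.14 and Bckdha lowest at -0.12. Of 24 genes of amino acid sensing and mTORC1, 7 were above 0 and 3 had an unadjusted p under 0.05, with RragB highest at 0.070 and Nprl2 lowest at -0.22. In these other 5 lists the TNF-α+NFL libraries were all below in 2 of the 16 serine, glycine and one-carbon genes, 4 of the 20 synthetases, 2 of the 26 shuttle and cycle genes, 2 of the 13 branched-chain genes and 3 of the 24 sensing genes. They were all above in 1 synthetase and 1 branched-chain gene.

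**Figure D5:**
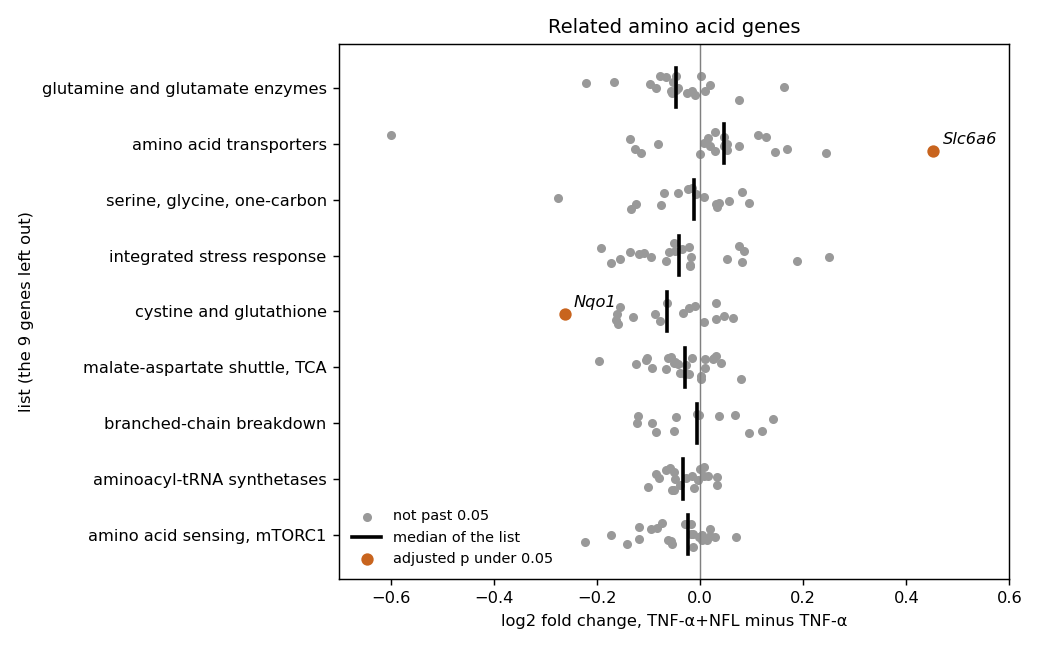
Log2 fold change between the groups (TNF-α+NFL minus TNF-α) of the tested genes of each list, with the 9 genes left out, black bars for the list medians and orange points for genes at an adjusted p under 0.05. Slc6a6 lies above 0, Nqo1 lies below 0, and the medians run from -0.064 to 0.046.

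Without TNF-α replicate 1, 11 of 181 related genes were called in place of 2 of 180. This was 6.08% of them, against 6.94% of all genes tested in that fit. The 3 higher genes were Slc38a1, Nupr1 and Slc7a8, with log2 fold changes from 0.17 to 0.20. Slc38a1 and Slc7a8 encode further carriers of neutral amino acids. The 8 lower genes were Lamtor1, Nfe2l2, Shmt2, Farsa, Hmox1, Gpx1, Txn1 and Nqo1, with log2 fold changes from -0.29 to -0.14. Nfe2l2 encodes NRF2, and Hmox1, Gpx1, Txn1 and Nqo1 encode proteins of the defence against oxidants. With all 6 libraries, 5 of the 17 cystine and glutathione genes were above 0 and 12 below, with Gclc highest at 0.063. The activity of NRF2 was not measured. Slc6a6 was not called in that fit, at a log2 fold change of 0.48.

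Slc7a11 had the widest range over the 6 libraries, and the genes whose pattern stayed closest to it were Vamp1, Hmbox1 and Helz2. Their log2 CPM, each centred on its own mean, differed from that of Slc7a11 by at most 0.047, 0.058 and 0.060 in any of the 6 libraries. Their own log2 fold changes were 0.19, 0.14 and 0.17, and the adjusted p from edgeR was 0.57, 0.43 and 0.54. These were picked from all 13250 tested genes over 6 libraries, in which close matches are found for many patterns.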

How the data were processed

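The 6 libraries were single-end 50-base RNA-seq of poly(A) RNA. The authors deposited estimated counts, many of them fractional, FPKM values (per transcript length and mapped reads) and TPM values (per length, to a common sum). The submitters' processing notes name HISAT2 2.0.4, Bowtie2 2.2.5, RSEM 1.2.12 and Rnor_6.0, without roles. The annotation is not given in the sources used here. Between 27.28% and 27.96% of the genes had fractional counts. Genes with near-identical copies are uncertain.

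Rounded to whole numbers, the counts went into edgeR 4.0.16 under R 4.3.3 (filterByExpr, TMM, robust quasi-likelihood fit, two-sided, adjusted p under 0.05 over 13250 genes), with limma 3.58.1 and DESeq2 1.42.0 as alternatives. Each standard error came from the size of the log2 fold change over the root of its F value. The biological coefficient of variation was 6.39%. Replicate pairs varied 2.68 to 15.9 times more than counting noise, so none was treated as a duplicate of another. The 9 genes and the lists were chosen with earlier results of these data known. A gene of the planned lists is not reported here and was left out of their counts. Named are the 9 genes, list genes past the threshold or at the extremes, and the 3 closest patterns. Of 18420 gene identifiers, 17068 matched RefSeq (GRCr8), used for names and upstream sequences. Partner genes, markers and the genes called without TNF-α replicate 1 were chosen after values were seen.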

Additional observations from a re-analysis of the deposited data

How the results depend on the processing

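Of the 9 genes, Asns and Got1 changed sign in 1 of 14 alternatives each, and the other 7 in none of those 14. The ratio of mean TPM was a further alternative, chosen after seeing the data. With it 4 of the 9 genes were above 0, Asns among them, against 60.51% of the tested genes. The order by TPM was the same with FPKM and in 5 single libraries, whereas in TNF-α replicate 1 alone 2 genes changed places. Over all genes, the counts of 54 higher and 27 lower became 84 and 48 when low counts were not filtered, 95 and 53 by the DESeq2 Wald test, 3 and 3 with limma on log2(FPKM + 1), and 7 and 6 with a pseudocount of 0.1. Leaving out 1 library, they ran from 5 to 460 and from 0 to 470, with the most calls without TNF-α replicate 1 and the fewest without TNF-α+NFL replicate 1. Of the related genes, none passed in either direction, 0 and 0, with limma on FPKM. Leaving out 1 library, the related genes called ran from 0 to 3 higher and from 0 to 8 lower. A fit with a replicate block called 25 genes higher and 9 lower, and of the related genes 1 was higher and 0 were lower. The sources do not state that the replicate numbers pair the cultures, so the main fit had no block. The correlations of same-numbered deviations were 0.030, -0.024 and 0.10. Low correlations cannot show that the cultures were set up separately. The cause of these differences was not tested. With 122.19 to 154.66 counts per library, Slc7a11 is the one of the 9 genes that depth limits most.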
